A study of Mus musculus with 32 samples.

Results

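The phagocyte NADPH oxidase is the enzyme complex that transfers electrons from NADPH across a membrane to oxygen and so makes superoxide. Its transcripts were followed here through 6 genes, Cybb, Cyba, Ncf1, Ncf4, Rac2 and Hvcn1, found by gene symbol among the 74021 genes listed in the table of sorted microglia, the 74016 in the table of genotypes and disease stages and the 74021 in the spinal cord table. All 6 passed the filter on low counts in each of the 3 tables, so every member has a value in every library. Cybb encodes the catalytic membrane subunit, which is unstable without its membrane partner, the product of Cyba. Ncf1 encodes the organizer subunit that moves from the cytosol to the membrane after phosphorylation, and Ncf4 a cytosolic subunit that binds a phosphoinositide of phagosomes. Rac2 is a GTPase of blood cells that docks on the assembled enzyme, and Hvcn1 is the voltage-gated proton channel that lets protons out while the enzyme moves electrons. Microglia, the resident macrophages of the central nervous system, use the complex, and so do neutrophils and monocytes.

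All diseased animals carried the mutant human SOD1 transgene of the SOD1G93A line, a model of amyotrophic lateral sclerosis whose transgene is active in many cell types, not only in microglia. CD11b+/CD45int cells were sorted from the lumbar spinal cord. From P140 SOD1G93A mice these cells were split on LAG-3 at the cell surface into LAG-3-low (n = 5) and LAG-3-high (n = 5) libraries, and undivided cells of non-transgenic littermates (WT, n = 4), whose age the sources used here do not give, were the control. A separate table held cells of the same gate at P120 and at P140, with Lag3 intact (SOD1G93A/LAG-3+/+) or deleted (SOD1G93A/LAG-3-/-, n = 3 for each age and genotype), and the last table held whole lumbar cord of the same 2 genotypes at P140 (n = 3 each). LAG-3 is an inhibitory receptor best known on T cells, and the knockout removed it from the whole animal. Lag3 itself followed the labels of sort and genotype. It lay between 34.8 and 57.8 CPM, counts scaled to the same library total, in LAG-3-low and between 146.3 and 195.1 in LAG-3-high. WT libraries had no more than 10 CPM. In sorted cells of the stage table Lag3 lay between 24.4 and 63.0 CPM in LAG-3+/+ and at no more than 0.461 in LAG-3-/-. In cord it lay between 43.4 and 74.5 CPM in LAG-3+/+ and between 5.50 and 5.72 in LAG-3-/-. Every P140 LAG-3+/+ library of sorted cells held less Lag3 than every P120 one, with means of 26.1 and 59.3 CPM. That difference was not called (log2 -1.19, edgeR adjusted p = 0.136). The labels tie no library to an animal, so the p-values below measure the spread between these libraries, which may be technical in part.

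Library totals ran from 9403475 to 22850586 counts in the sorted table, from 23981406 to 49512632 in the stage table and from 19430102 to 26994524 in the cord table. Some features of the libraries bear on the members. To begin with, neutrophil transcripts differed between the sorts: 16 neutrophil markers (Camp, Ngp, S100a8 and others, without Csf3r, which was at 480.4 CPM or more in each LAG-3-high library) summed to 28938, 53508, 67501, 50616 and 23258 CPM in LAG-3-low, to 6033, 36779, 9450 and 70712 in WT and to 5.8, 7.41, 9.73, 3.55 and 7.82 in LAG-3-high libraries. Ly6g, Mmp9, Elane and Prtn3 were at 0 in every LAG-3-high library. The 10 microglia markers (P2ry12, Tmem119, Cx3cr1 and others) summed to 17060 to 25520 CPM in LAG-3-low, 24740 to 27190 in LAG-3-high and 33740 to 39480 in WT, and the 8 markers of border macrophages and monocytes to 211.5 to 578.1, 2.96 to 14 and 39.9 to 739.7 CPM. Second, fold changes of all genes followed transcript length in the stage table: from P120 to P140 in LAG-3+/+ the median log2 fold change was 1.10 for genes under 1000 bases and -1.12 for those of 5000 bases or more. A trend was also seen in cord between the genotypes (0.86 and -0.43) and in LAG-3-low against WT (-0.93 and 0.19). Last, part of the exonic sequence of some members lies over exons of a gene on the opposite strand, which the unstranded microglia libraries cannot separate. This holds for 43.9% of Hvcn1 (Tctn1), 18.4% of Cyba (Il17c) and 15.7% of Ncf1 (Gtf2ird2).

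The sequences just before the start sites of Cybb, Ncf1, Ncf4 and Rac2 are shown because Ncf1, Ncf4 and Rac2 were called lower together in LAG-3-high cells and Cybb was the member called lower in LAG-3-/- cord. Each is the 150 bases before the first base of the gene's canonical transcript in the GENCODE annotation of GRCm39, written 5′ to 3′ on the gene's own strand. Capitals mark a match, on either strand, to GAGGAA, a core that PU.1 (the product of Spi1) binds, or to GAAA followed by any pair of bases and GAAA again (the paired GAAA motif), a form that interferon regulatory factors such as IRF8 bind.
Cybb (chrX:9335571-9335720, minus strand): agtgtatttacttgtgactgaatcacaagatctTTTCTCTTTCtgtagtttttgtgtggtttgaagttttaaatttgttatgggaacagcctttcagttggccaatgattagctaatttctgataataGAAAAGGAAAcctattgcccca
Ncf1 (chr5:134258480-134258629, minus strand): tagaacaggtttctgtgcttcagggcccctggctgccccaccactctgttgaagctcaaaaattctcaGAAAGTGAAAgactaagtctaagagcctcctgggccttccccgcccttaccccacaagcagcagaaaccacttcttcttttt
Ncf4 (chr15:78128832-78128981, plus strand): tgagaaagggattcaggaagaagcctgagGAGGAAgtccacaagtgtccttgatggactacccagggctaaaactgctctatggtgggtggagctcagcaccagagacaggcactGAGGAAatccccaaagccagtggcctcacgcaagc
Rac2 (chr15:78457430-78457579, minus strand): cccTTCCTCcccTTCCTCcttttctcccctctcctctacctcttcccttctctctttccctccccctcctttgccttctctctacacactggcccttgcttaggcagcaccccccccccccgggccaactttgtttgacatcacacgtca

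GAGGAA was found before 2 members. Ncf4 held it at positions -121 to -116 and -35 to -30 from the start site, and Rac2 held it on the opposite strand at -147 to -142 and -138 to -133. Cybb held the paired GAAA motif on the opposite strand at -117 to -108 and on its own strand at -22 to -13, and Ncf1 held it at -82 to -73. The windows of Cyba and Hvcn1, members that were also called in some contrasts, held neither letter string and are not printed. No match overlapped another. Of 21770 windows of the same length before protein-coding genes, 14.2% held GAGGAA and 1.65% held the paired GAAA motif. The matches are a description of the letters and not sites shown to be bound.

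Compared per kilobase of the longest transcript, Cyba was the most abundant member in every group. In LAG-3-high libraries it stood at 662 ± 36.2 CPM per kilobase (mean ± SD, n = 5). Hvcn1 at 120.2 ± 5.07 and Cybb at 120.1 ± 18.4 CPM per kilobase came next and did not differ beyond their spread. Below them were Ncf1 at 69.3 ± 5.77, Rac2 at 53.5 ± 1.31 and Ncf4 at 52.4 ± 6.7 CPM per kilobase, of which the last 2 lay within their spread. The order was different in LAG-3-low libraries, where Cyba at 499 ± 56.2 was followed by Cybb at 223 ± 69.6, Rac2 at 180.2 ± 51.9, Ncf1 at 145 ± 28.8, Ncf4 at 122 ± 31.6 and Hvcn1 at 85.5 ± 13.7 CPM per kilobase, and neighbours from Cybb to Ncf4 lay within their spread. Hvcn1 was therefore last of 6 per kilobase in LAG-3-low and second in LAG-3-high. In WT libraries the order was Cyba (539 ± 245), Ncf1 (126 ± 53.3), Ncf4 (105 ± 29), Rac2 (74.1 ± 33), Cybb (48.5 ± 42.2) and Hvcn1 (42.4 ± 36.3 CPM per kilobase, n = 4), with wide spreads that overlapped between all neighbours below Cyba. Whole cord held far less of each transcript, and Cyba again led with 16.1 ± 3.47 CPM per kilobase in LAG-3+/+ cord (n = 3), followed by Ncf1 at 9.21 ± 1.34 and Cybb at 8.48 ± 1.54.

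The LAG-3-high against LAG-3-low contrast asks how microglia of diseased cord differ by the LAG-3 they display. The cytosolic side of the complex was lower in LAG-3-high cells: Ncf1, Ncf4 and Rac2 fell, while the membrane pair, Cybb and Cyba, and the proton channel Hvcn1 did not pass the test. A call needed a Benjamini-Hochberg adjusted p under 0.1 together with a log2 fold change beyond 1 in either direction, in a quasi-likelihood fit of all 14 libraries with edgeR. Thus 3 of 6 members were called lower and none higher, where 2.67% of all 16508 genes tested were called lower and 0.818% higher, 3.49% in all (441 and 135 genes, or 633 and 35 with library totals in place of TMM scaling, which moved the median of all genes to -0.40). The members' median log2 fold change was -0.98, against -0.02 over all genes tested.

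Rac2 stood at 466, 743, 867, 620 and 443 CPM in the LAG-3-low libraries and at 189, 188, 189.8, 187 and 179 CPM in the LAG-3-high libraries. Every LAG-3-high library was below every LAG-3-low library, and the 5 LAG-3-high values lay close together. Rac2 fell by 1.75 on the log2 scale (SE 0.26, edgeR adjusted p = 0.00229), which is 3.37-fold. Ncf4 stood at 148, 199, 250, 235 and 138 CPM in LAG-3-low and at 80.2, 83.3, 85.6, 69.6 and 99.2 CPM in LAG-3-high, again without overlap. It fell by 1.21 on the log2 scale (SE 0.23, edgeR adjusted p = 0.00854), or 2.32-fold. Ncf1 stood at 307, 398, 538, 432 and 411 CPM in LAG-3-low and at 209.7, 194, 197, 177 and 221 CPM in LAG-3-high, and the groups did not overlap. It fell by 1.06 on the log2 scale (SE 0.25, edgeR adjusted p = 0.0345), or 2.09-fold, close to the minimum fold of the call. The Ncf1 call was lost without LAG-3-low replicate 3 (log2 -0.95, edgeR adjusted p = 0.107, range over 20 alternatives 3.43e-05 to 0.107), while Rac2 and Ncf4 were called in each of the 20 alternatives. Groups without overlap, LAG-3-high being the lower, were found for 6.52% of all genes tested.

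Cybb stood at 968, 1197, 1422, 1181 and 545 CPM in LAG-3-low and at 714, 506, 577, 568 and 494 CPM in LAG-3-high libraries. The lowest LAG-3-low library lay among the LAG-3-high ones, and the log2 fold change of -0.89 (SE 0.41, edgeR adjusted p = 0.399) did not pass. Cyba stood at 900.2, 972, 1044, 987 and 770.1 CPM in LAG-3-low and at 1226, 1300, 1302, 1136 and 1238 CPM in LAG-3-high. Hvcn1 stood at 457, 507, 465, 563 and 358 CPM in LAG-3-low and at 679.6, 636, 686, 679 and 626 CPM in LAG-3-high. For Cyba and Hvcn1 each LAG-3-high library was above each LAG-3-low library, which held for 8.95% of all genes tested, but neither passed the test: the log2 fold changes were 0.41 (SE 0.23) and 0.49 (SE 0.44), with edgeR adjusted p = 0.539 and 0.808. Tctn1, whose exons overlap those of Hvcn1, had a mean of 11.9 CPM in LAG-3-low and 18.4 CPM in LAG-3-high.

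**Figure D1:**
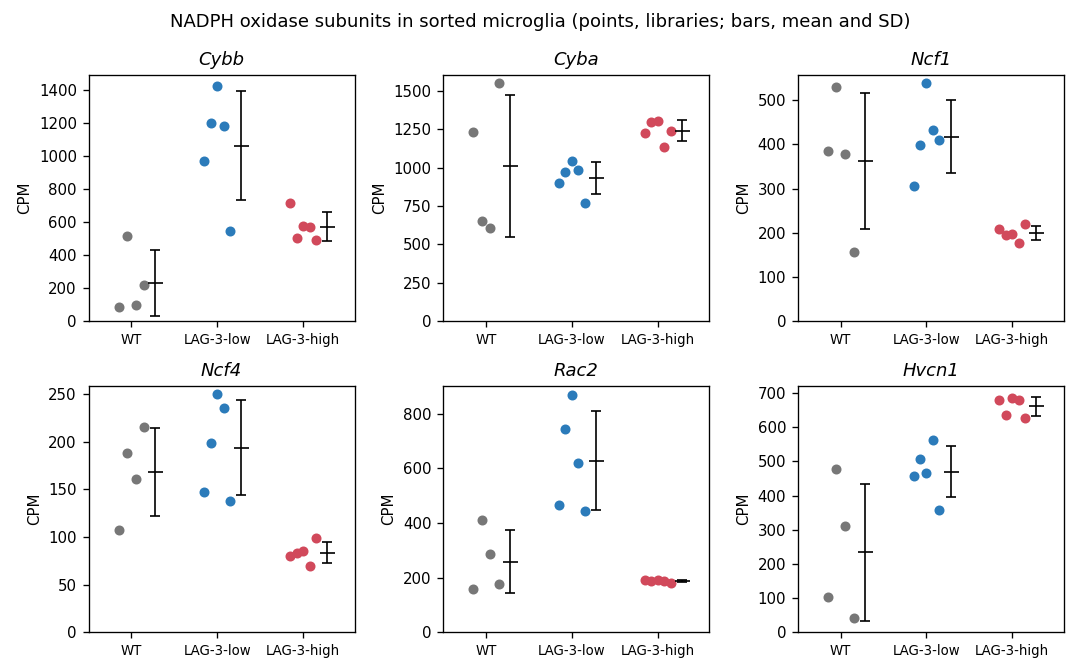
CPM of the 6 members on linear axes, 1 panel a gene, for the sorted libraries (points) with the mean and SD of each group beside them. Rac2, Ncf4 and Ncf1 are lower in every LAG-3-high library than in any LAG-3-low library, while Cyba and Hvcn1 are higher in every LAG-3-high library without passing the test.

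Neutrophil transcripts were lower in LAG-3-high as well. Of the 17 neutrophil markers 16 could be tested, Csf3r among them, and 15 were called lower in LAG-3-high, as were 2 of 7 border macrophage and monocyte markers, 1 of 3 lymphocyte markers and 1 of 10 microglia markers. Within LAG-3-low, the library with the highest neutrophil sum (replicate 3, 67501 CPM) also held the most Rac2, Ncf4 and Ncf1. Replicate 5, with the lowest sum (23258 CPM), held the least Rac2 and Ncf4, while Ncf1 was lowest in replicate 1. This was not particular to the called members, since Cybb and Cyba were also highest in replicate 3 and lowest in replicate 5. Within WT, replicate 4 had the highest neutrophil sum of any library, 70712 CPM, and its Rac2 of 178 CPM and Ncf1 of 157 CPM lay below the LAG-3-high libraries, while its Ncf4 of 215 CPM was the highest of WT. The part of neutrophil RNA in the difference between the sorts was not tested. In bulk libraries, fewer cells of a type and less RNA per cell cannot be told apart.

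**Figure D2:**
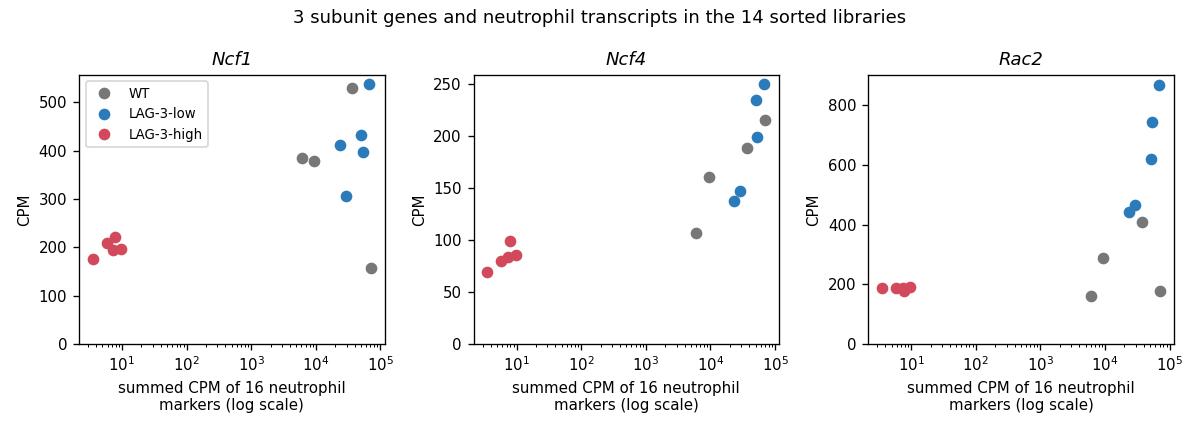
CPM of Ncf1, Ncf4 and Rac2 (linear axis) against the summed CPM of the 16 neutrophil markers (log axis), 1 point a sorted library, with the groups in colour. The LAG-3-high libraries sit at the far left, below 10 CPM of neutrophil markers, and the LAG-3-low and WT libraries at 6033 CPM or more, where WT replicate 4 is low for Ncf1 and Rac2.

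Against microglia of non-transgenic littermates, the catalytic subunit rose in both sorts of the diseased cord. Cybb stood at 87.6, 519, 98.6 and 219 CPM in WT libraries. All 5 LAG-3-low libraries were above all 4 WT libraries, and Cybb rose 4.6-fold (log2 2.20, SE 0.46, edgeR adjusted p = 0.00649). In LAG-3-high it rose 2.48-fold over the same WT libraries (log2 1.31, SE 0.45, edgeR adjusted p = 0.0501), although WT replicate 2 lay among the LAG-3-high values. That call was lost without WT replicate 1 (log2 1.01, edgeR adjusted p = 0.124) and in 3 other alternatives. Over all 20 alternatives its adjusted p, from edgeR or DESeq2, ran from 0.000145 to 0.165.

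Rac2 stood at 159.5, 409, 286 and 178 CPM in WT libraries, all of them below the lowest LAG-3-low library, and rose 2.43-fold in LAG-3-low (log2 1.28, SE 0.28, edgeR adjusted p = 0.00766). Correcting for length and GC content took it below the minimum fold (log2 0.91). In LAG-3-high, Rac2 did not pass the test against WT (log2 -0.47, SE 0.27, edgeR adjusted p = 0.23), but it was called lower with the length and GC correction by canonical transcripts (log2 -1.17, edgeR adjusted p = 0.000451). So LAG-3-low cells had 2 of 6 members above WT by the test, Cybb and Rac2, and none below, where the test called 10.9% of all genes higher and 11% lower. Among all genes, 9.78% had groups that did not overlap and were higher in LAG-3-low.

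In LAG-3-high against WT, 2 members were called higher (Cybb and Hvcn1) and 1 lower (Ncf4), where 12.1% and 14.9% of all genes were called (2000 and 2464 genes, or 1488 and 3234 without TMM scaling, which moved the median of all genes to -0.39). Hvcn1 stood at 103, 479, 309 and 42 CPM in WT libraries, a wide spread but all below the LAG-3-high values, as for 12.4% of all genes. It rose 2.84-fold in LAG-3-high (log2 1.5, SE 0.49, edgeR adjusted p = 0.0405) and stood at log2 1.01 (SE 0.48, edgeR adjusted p = 0.162) in LAG-3-low. There it was called without WT replicate 2 (log2 1.64, edgeR adjusted p = 0.0182), without WT replicates 2 and 4 and with DESeq2. Ncf4 stood at 107, 188, 161 and 215 CPM in WT, above each LAG-3-high value as for 8.55% of all genes, and fell by 1.01 on the log2 scale (SE 0.24, edgeR adjusted p = 0.00898), at the edge of the minimum fold. Ncf1 stood at 385, 529.5, 379 and 157 CPM in WT, with replicate 4 below the LAG-3-high libraries, and had a log2 fold change of -0.86 (SE 0.27, edgeR adjusted p = 0.0338), short of that fold. It was called in 5 of 20 alternatives, among them both length and GC corrections (log2 -1.15 and -1.44) and the fit without WT replicate 4 (log2 -1.10). Cyba spread from 606 to 1554 CPM among WT libraries and passed in neither contrast (log2 -0.11 and 0.30, SE 0.24 and 0.24). With canonical transcripts in the correction it was called higher in LAG-3-high (log2 1.02, edgeR adjusted p = 7.28e-05). The Hvcn1 call was lost in 4 of 20 alternatives and the Ncf4 call in 9, with edgeR or DESeq2 adjusted p from 0.00321 to 0.152 and from 0.000644 to 0.0721. These contrasts share their WT libraries, and WT cells were not sorted on LAG-3. Beside them, neutrophil markers were called higher for 4 of 16 in LAG-3-low and lower for 13 of 16 in LAG-3-high, and 7 of 10 microglia markers were called lower in each. Their part in the members' values was not tested. Without WT replicates 2 and 4, the libraries with the highest neutrophil sums in that group, Cybb and Rac2 had log2 fold changes of 3.53 and 1.5 in LAG-3-low.

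In the stage table, which asks how LAG-3 loss and disease stage act on unsplit microglia, Cyba and Ncf4 rose with stage in LAG-3+/+ cells and were lower in LAG-3-/- than in LAG-3+/+ cells at P140. Calls here needed an adjusted p under 0.1 and no minimum fold, in a fit of all 12 libraries. In LAG-3+/+ cells 3 of 6 members were called higher at P140 and none lower, where the test called 11.9% of 18669 genes higher and 15.5% lower (2219 and 2899 genes, or 971 and 4120 without TMM scaling, which moved the median of all genes to -0.70). The median log2 fold change was 0.43 over the members and -0.22 over all genes.

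Cyba stood at 598, 603 and 576 CPM in P120 LAG-3+/+ libraries and at 1384, 2113 and 1909 CPM in P140 LAG-3+/+ libraries. The P140 libraries were all above the P120 ones, and Cyba rose 3.04-fold (log2 1.61, SE 0.25, edgeR adjusted p = 0.00557). In LAG-3-/- cells Cyba stood at 501, 581 and 445 CPM at P120 and at 1308, 969 and 634 CPM at P140, also without overlap (as in 7.39% of all genes in that direction), with a log2 fold change of 0.93 (SE 0.25, edgeR adjusted p = 0.475) that did not pass. Ncf4 stood at 66.8, 72.5 and 71.7 CPM at P120 and at 168, 166 and 183 CPM at P140 in LAG-3+/+ cells, and rose 2.45-fold (log2 1.29, SE 0.23, edgeR adjusted p = 0.00636). In LAG-3-/- cells it stood at 51, 67 and 67.8 CPM at P120 and at 124, 69.2 and 79.3 CPM at P140, where only replicate 1 stood well above the P120 values (log2 0.55, SE 0.22, edgeR adjusted p = 0.53). Both genes are among the shorter members, with canonical transcripts of 793 bases for Cyba and 1483 bases for Ncf4, and shorter genes as a whole were higher at P140. With a correction for length and GC content both were still called, at log2 1.44 for Cyba and 1.02 for Ncf4. Over 17 alternatives, the correction by canonical transcripts among them, both calls held, with lowest log2 fold changes of 1.10 for Cyba and 0.80 for Ncf4.

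Rac2, at 181, 171 and 155 CPM at P120 and 209, 229 and 283 CPM at P140 in LAG-3+/+ cells, was called at a smaller fold of 1.42 (log2 0.51, SE 0.19, edgeR adjusted p = 0.0824). The libraries of the 2 stages did not overlap, as in 16.8% of all genes in that direction, but the call was lost in 11 of 17 alternatives and its log2 fold change was 0.01 without TMM scaling. In LAG-3-/- cells Rac2 stood at 115, 157 and 113 CPM at P120 and 232, 194 and 190.4 CPM at P140 (log2 0.68, SE 0.19, edgeR adjusted p = 0.475). Hvcn1 stood at 464, 409 and 324 CPM at P120 and 571, 406 and 561 CPM at P140 in LAG-3+/+ cells, with overlap, and did not pass (log2 0.36, SE 0.19, edgeR adjusted p = 0.208). As the member with the longest canonical transcript, 5500 bases, Hvcn1 moved most with the length and GC corrections. It stood at log2 1.12 by the longest and 1.44 by the canonical transcripts (edgeR adjusted p = 0.00967 and 0.00992). Over 17 alternatives the adjusted p, from edgeR or DESeq2, ran from 0.00967 to 0.719. Cybb, at 304, 222 and 162 CPM at P120 and 224, 117 and 109.7 CPM at P140, overlapped between stages (log2 -0.61, SE 0.43, edgeR adjusted p = 0.352). Ncf1 stood at 222, 246 and 281 CPM at P120 and 265, 178 and 252 CPM at P140 (log2 -0.11, SE 0.19, edgeR adjusted p = 0.744).

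In LAG-3-/- cells no member was called between the stages by edgeR, and neither was any other gene (0% of 18669). Without adjustment, 3 members (Cyba, Rac2 and Ncf4) and 8.88% of all genes had p under 0.05, and DESeq2 called 2 members, Cyba and Rac2, with 358 genes higher and 91 lower in all. All 6 members had a positive log2 fold change in these cells (4 of 6 without TMM scaling, where Ncf1 and Hvcn1 were negative), with a median of 0.46 against -0.03 over all genes. Whether the 2 genotypes differed in their change with stage was tested by the interaction term, which called no member, where 0.171% of all genes were called (0.161% higher and 0.0107% lower). The interaction was -0.74 for Ncf4 (SE 0.32, edgeR adjusted p = 0.339) and -0.67 for Cyba (SE 0.35, edgeR adjusted p = 0.427) on the log2 scale. Ncf4 alone had an unadjusted p under 0.05 there, as had 13.6% of all genes, and DESeq2 called no member. Without P140 LAG-3-/- replicate 1 the Ncf4 interaction was called, at log2 -1.03 (edgeR adjusted p = 0.0431, range over 22 alternatives 0.0431 to 0.569).

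Between the genotypes at P140, 2 of 6 members were called lower in LAG-3-/- cells and none higher, where 3% of genes were called lower and 7.22% higher, 10.2% in all (561 and 1347 genes, or 243 and 2048 without TMM scaling, which moved the median of all genes to 0.47, and 837 and 1275 with RLE size factors). Cyba and Ncf4, with the P140 values given above, had no LAG-3-/- library as high as the lowest LAG-3+/+ library, as had 8.92% of all genes in that direction. Cyba fell by 0.89 on the log2 scale (SE 0.25, edgeR adjusted p = 0.0694), or 1.86-fold, and Ncf4 fell by 0.93 (SE 0.23, edgeR adjusted p = 0.0489), or 1.9-fold. P140 LAG-3-/- replicate 1 lay nearest to the LAG-3+/+ libraries for both genes. Neither was called without P140 LAG-3+/+ replicate 2 (log2 -0.76 for Cyba, -0.95 for Ncf4), without P140 LAG-3+/+ replicate 3 (-0.84 and -0.88), without P140 LAG-3-/- replicate 2 (-0.92 and -0.80) or without P140 LAG-3-/- replicate 3 (-0.66 and -0.83). The other 4 members were not called: Cybb stood at 144, 334 and 320.5 CPM in P140 LAG-3-/- (log2 0.83, SE 0.43), Ncf1 at 297, 255 and 248 (log2 0.20), Rac2 at the values above (log2 -0.23) and Hvcn1 at 519, 496 and 397 (log2 -0.12), with edgeR adjusted p from 0.264 to 0.752. At P120 no member was called between genotypes, where 0.0107% of all genes were called, none had an unadjusted p under 0.05, against 2.95% of all genes, and DESeq2 called none. There the largest difference was that of Rac2 (log2 -0.39, SE 0.19, unadjusted p = 0.0589 in edgeR), and Cybb at 123, 308 and 188, Ncf1 at 251, 199 and 254 and Hvcn1 at 399, 412 and 409 CPM in P120 LAG-3-/- all overlapped with LAG-3+/+. The stage and genotype contrasts share the P140 LAG-3+/+ libraries.

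Genes under 1000 bases had a median log2 fold change of -0.64 between the genotypes at P140 and those of 5000 bases or more 0.83, the reverse of the trend with stage in LAG-3+/+. With the length and GC correction by canonical transcripts neither Cyba nor Ncf4 was called between the genotypes at P140. They stood at log2 -0.69 and -0.65 (edgeR adjusted p = 0.103 and 0.121). Both calls held with the correction by the longest transcripts. The 16 neutrophil markers summed to 2130, 2617 and 1767 CPM in P120 LAG-3+/+, 6.58, 4.55 and 2.81 in P120 LAG-3-/-, 3493, 683 and 3.92 in P140 LAG-3+/+ and 4.02, 856 and 4700 in P140 LAG-3-/- libraries, so the P140 libraries of each genotype spanned almost the whole of that range. The 10 microglia markers summed to 27976, 31466 and 28847 CPM in P120 LAG-3+/+, 38817, 41038 and 47027 in P140 LAG-3+/+, 32638, 23673 and 31252 in P120 LAG-3-/- and 43192, 28210 and 26844 CPM in P140 LAG-3-/- libraries. Like Cyba and Ncf4 they were highest in P140 LAG-3+/+ libraries and in P140 LAG-3-/- replicate 1. Without the P140 library of each genotype that had the highest neutrophil sum, Cyba was still called between genotypes at P140 (log2 -0.82) and Ncf4 was not (log2 -0.85, edgeR adjusted p = 0.158). The part of transcript length, of microglia markers and of neutrophil RNA in the members' differences was not tested beyond these values.

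**Figure D3:**
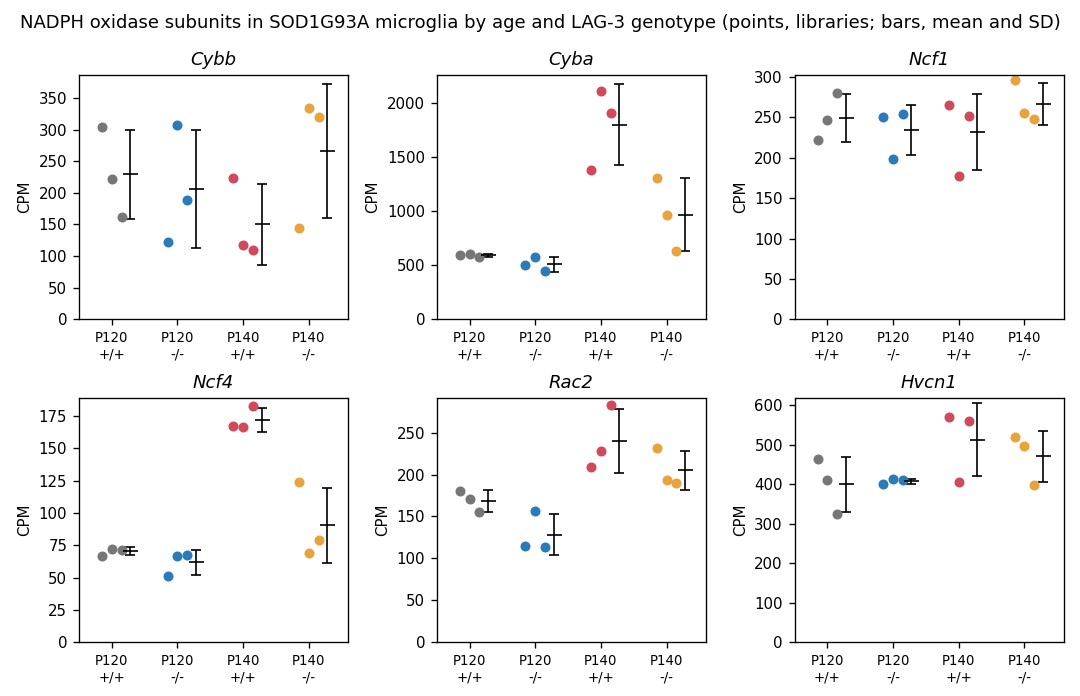
CPM of the 6 members on linear axes in P120 and P140 microglia of both genotypes; points are the 3 libraries of a group and the bar beside them is the mean and SD. Cyba and Ncf4 are highest in the P140 LAG-3+/+ libraries, and P140 LAG-3-/- replicate 1 is the nearest to them.

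In whole lumbar cord at P140, Cybb was the member that fell with loss of LAG-3. It stood at 46.4, 32.2 and 42.6 CPM in LAG-3+/+ cord and at 13.8, 12.3 and 11.8 CPM in LAG-3-/- cord, so every LAG-3-/- value was below every LAG-3+/+ value by a wide gap. Cybb fell by 1.68 on the log2 scale (SE 0.15, edgeR adjusted p = 0.000105), or 3.2-fold, and over 15 alternatives its log2 fold change ran from -1.82 to -1.38. It was 1 of 6 members called, none being higher, where 3.15% of the 17702 genes tested were called lower and 4.37% higher, 7.52% in all, with the minimum fold of the sorted table (558 and 773 genes, or 830 and 485 without TMM scaling). Hvcn1 stood at 32.5, 24.8 and 30.7 CPM in LAG-3+/+ and 24.3, 14.9 and 18.6 CPM in LAG-3-/- cord, also without overlap, and had a log2 fold change of -0.61 (SE 0.17, edgeR adjusted p = 0.0188), under that fold. Groups that did not overlap and were lower in LAG-3-/- were found for 26.1% of all genes in this table, whose replicates lay close together, and 47.1% of genes passed the adjusted p alone.

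The remaining 4 members were not called in cord. Cyba stood at 35, 22.8 and 32.9 CPM in LAG-3+/+ and 54.2, 30.5 and 30.0 CPM in LAG-3-/- cord (log2 0.33, SE 0.27, edgeR adjusted p = 0.367), its highest value being LAG-3-/- replicate 1. Ncf1 stood at 29.9, 22.3 and 27.5 and 28.3, 21.1 and 21.6 CPM (log2 -0.17, SE 0.15), Ncf4 at 4.38, 3.1 and 4.49 and 3.09, 2.84 and 3.7 CPM (log2 -0.32, SE 0.22) and Rac2 at 14, 9.51 and 12.9 and 12.9, 8.56 and 9.61 CPM (log2 -0.24, SE 0.19). All 3 overlapped between the genotypes, with edgeR adjusted p from 0.282 to 0.388. The 10 microglia markers summed to 1412 ± 174 CPM in LAG-3+/+ and 1045 ± 159 CPM in LAG-3-/- cord (mean ± SD, n = 3) and none of them was called. Across the 2 tables at the same stage, Cybb was thus -1.68 in cord and 0.83 in sorted microglia (log2, LAG-3-/- against LAG-3+/+), values from separate fits of different libraries whose difference was not tested.

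**Figure D4:**
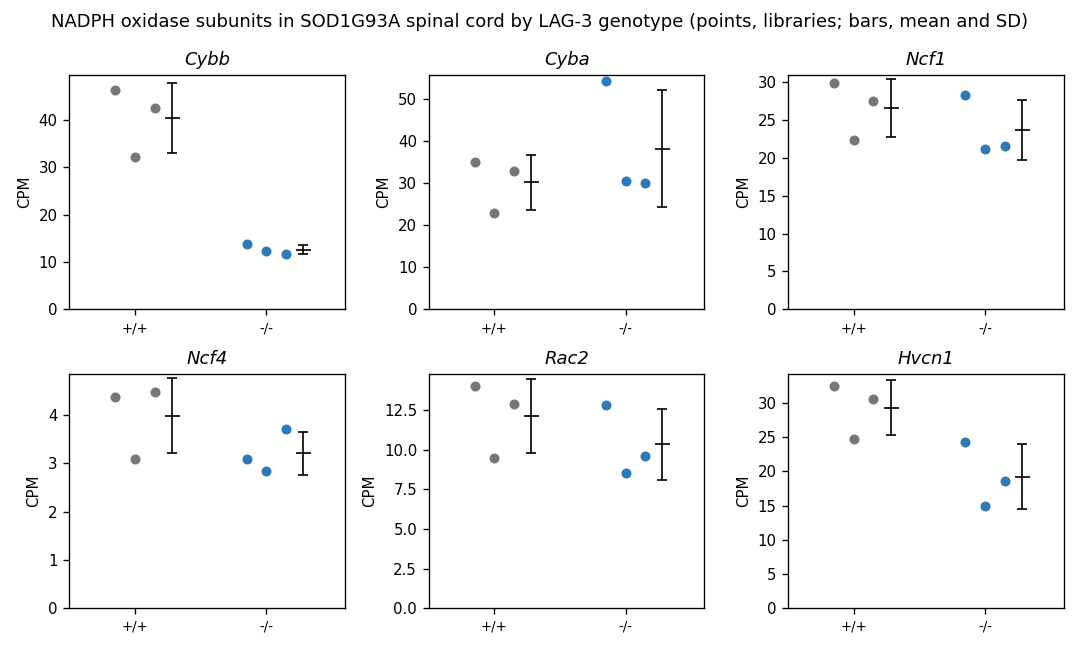
CPM of the 6 members on linear axes in P140 lumbar cord of both genotypes, with the 3 libraries of a group as points and the mean and SD beside them. Cybb drops from 32.2 CPM or more to 13.8 CPM or less, Hvcn1 is lower by less, and the other 4 members overlap.

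The other genes of the pathway were counted over lists of 13 further oxidase subunits, 28 upstream activators, 6 restraints and 7 transcription factors. In the contrast of the LAG-3 sorts, 0 of 7 other subunits tested, 2 of 28 activators, 1 of 6 restraints and 1 of 7 transcription factors were called, all 4 genes lower. Of all genes, 2.67% were called lower there and 0.818% higher. Among them Arhgdib, which holds Rac GTPases in the cytosol, fell by 1.73 on the log2 scale (SE 0.27, edgeR adjusted p = 0.00297), from 1262, 1897, 1915, 1695 and 891 to 476, 459, 490, 419 and 471 CPM. The 3 others were Cebpe, a factor of late granulocyte development, and the exchange factors Vav3 and Tiam1, which were low or at 0 in LAG-3-high: means of 157, 11.8 and 5.1 CPM in LAG-3-low were set against 0.04, 0 and 0.165 CPM. The Tiam1 call was lost in 6 of 20 alternatives. Rac1, the general relative of Rac2, did not pass (log2 1.0, SE 0.55, edgeR adjusted p = 0.535), and neither did Cybc1, a chaperone of the membrane pair (log2 0.03, SE 0.25). Nor did Nox4 (log2 0.30), a related oxidase at low levels in every sorted library, or Nrros, which restrains the oxidase (log2 0.09). Of the factors that act on these genes, Spi1 did not pass (log2 -0.13, edgeR adjusted p = 0.944), and Irf8 passed the adjusted p of 0.0738 in edgeR short of the minimum fold (log2 0.73, SE 0.20).

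Against WT, Irf8 was at 348 ± 135 CPM in WT and rose 2.71-fold in LAG-3-high (log2 1.44, SE 0.22, edgeR adjusted p = 0.000533), a fold that both length and GC corrections took under the minimum. The activators gave 4 higher and 1 lower of 28 in LAG-3-low and 3 higher and 2 lower in LAG-3-high. Fgr, a Src-family kinase of myeloid cells, rose in both (log2 3.11 and 3.37, edgeR adjusted p = 0.000494 and 0.000154). Syk, a kinase below immune receptors, rose in LAG-3-low (log2 1.13, edgeR adjusted p = 0.00409) and Prkca, a protein kinase C, fell by 2.70 (edgeR adjusted p = 0.0295). The Syk call was lost with both length and GC corrections and that of Prkca in 3 of 20 alternatives, WT replicate 4 left out among them. In LAG-3-high the integrin subunit Itgb2 (log2 1.29) and the Rac exchange factor Dock2 (log2 1.04) rose, with edgeR adjusted p = 0.000451 and 0.00519. The Dock2 call was lost in 9 of 20 alternatives (log2 0.46 to 1.53) and that of Itgb2 in 3. Of the 6 restraints, Arhgdia and Abr rose in both sorts (log2 1.21 and 1.43 in LAG-3-low, 1.83 and 1.52 in LAG-3-high), while Arhgdib fell by 1.78 in LAG-3-high and did not pass in LAG-3-low (log2 -0.05). In LAG-3-low the calls of Arhgdia and Abr were each lost in 11 of 20 alternatives (edgeR or DESeq2 adjusted p from 0.000658 to 0.182 and from 0.00129 to 0.26), and in LAG-3-high that of Abr was lost in 5 and that of Arhgdia in none. Among transcription factors Cebpa rose in both (log2 1.34 and 2.28), and Cebpe was higher in LAG-3-low (log2 3.47) and lower in LAG-3-high, at a mean of 14.2 CPM in WT. In LAG-3-low the Cebpa call was lost in 3 and the Cebpe call in 6 of 20 alternatives. Of the other oxidase subunits, 0 of 7 were called in LAG-3-low and 1 of 7, the maturation factor Duoxa1, in LAG-3-high, where it was at 0 against a WT mean of 1.61 CPM, a call lost without WT replicate 2.

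With stage in LAG-3+/+ cells the partner GTPase moved against the members that rose. Rac1 stood at 479, 452 and 459 CPM at P120 and at 32.7, 38.8 and 17.1 CPM at P140 and fell by 3.97 on the log2 scale (SE 0.71, edgeR adjusted p = 0.00651), or 15.7-fold. Noxo1, an organizer of another oxidase, fell as well (log2 -1.75, edgeR adjusted p = 0.0786), a call lost in 9 of 17 alternatives. Of 27 activators tested 13 were called lower and 1 higher, against 15.5% and 11.9% of all genes, with Dock2, Plcg2 and the kinase Pak2 falling by 2.02, 2.12 and 1.84 on the log2 scale. Long genes as a whole were lower at P140 (median -1.12), and with canonical transcripts in the correction the 3 genes stood at log2 -0.98, -1.18 and -0.90 and were still called. Nrros and Arhgdib rose (log2 1.07 and 1.07) and Abr fell by 1.74 (lost with both corrections), and of 7 transcription factors 2 were called higher, Spi1 among them (log2 1.12, edgeR adjusted p = 0.0123), and 3 lower, among them Cebpa and Elf1, which fell by 2.82 and 1.29. Irf8 did not pass (log2 -0.33, edgeR adjusted p = 0.256).

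Between the genotypes at P140 Rac1 and the activators called had the opposite sign. Rac1 stood at 30.4, 237 and 397 CPM in LAG-3-/- libraries, where replicate 1 was as low as LAG-3+/+, and rose 7.49-fold (log2 2.91, SE 0.67, edgeR adjusted p = 0.0431). That call was lost in 7 of 17 alternatives (adjusted p from 0.000197 to 0.221), among them the fits without P140 LAG-3+/+ replicate 3, LAG-3-/- replicate 2 or LAG-3-/- replicate 3. Of 27 activators 9 were called higher and none lower, against 7.22% and 3% of all genes, with log2 fold changes of 1.84 for Plcg2, 1.83 for Dock2 and 2.34 for Pik3r5, a regulatory subunit of a phosphoinositide kinase. Long genes as a whole were higher in this contrast (median 0.83), and with canonical transcripts in the correction these 3 stood at log2 1.10, 1.05 and 1.52. The Pik3r5 call was lost in 2 alternatives, 1 of them without P140 LAG-3-/- replicate 2. Arhgdib fell by 0.78 (edgeR adjusted p = 0.0462), the only 1 of 6 restraints called, and Cebpa and Elf1 rose (log2 2.16 and 0.98). These calls were lost in 8, 7 and 10 of 17 alternatives, each of them in the fits without P140 LAG-3+/+ replicate 2 or 3 and without P140 LAG-3-/- replicate 2 or 3. Spi1 had a log2 fold change of -0.69 and did not pass (edgeR adjusted p = 0.125). None of these lists had a gene called in LAG-3-/- cells between the stages, between genotypes at P120 or by the interaction, and none in cord. Of all genes, 0%, 0.0107%, 0.171% and 7.52% were called in these contrasts, in that order.

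How alike the members moved was described by Pearson's r of log2 CPM, with no test, since the points share libraries, groups and depth. Across the 14 sorted libraries Ncf1 and Rac2 (0.774) and Ncf4 and Rac2 (0.757) had the highest r of any member pair, and Cyba and Ncf1 the lowest (-0.717). Across the 12 stage libraries the highest were Cyba with Ncf4 (0.928), Cyba with Rac2 (0.874) and Ncf4 with Rac2 (0.823), and Cybb had a negative r with each of the other members. Among the genes of at least 10 CPM, those whose log2 CPM was most like the mean of the 6 members, each scaled to the same mean and SD, included Tkt (r of 0.931), Sp140 (0.93), Dgat1 (0.93) and Flot2 (0.924), of 8918 genes of the sorted table. In the stage table the 5 most alike were Rbm3 (0.968), Epsti1 (0.953), Ddx1 (0.94), Mocs2 (0.939) and Capza1 (0.937) among 8675 genes. No gene was among the 5 most alike in both tables.

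**Figure D5:**
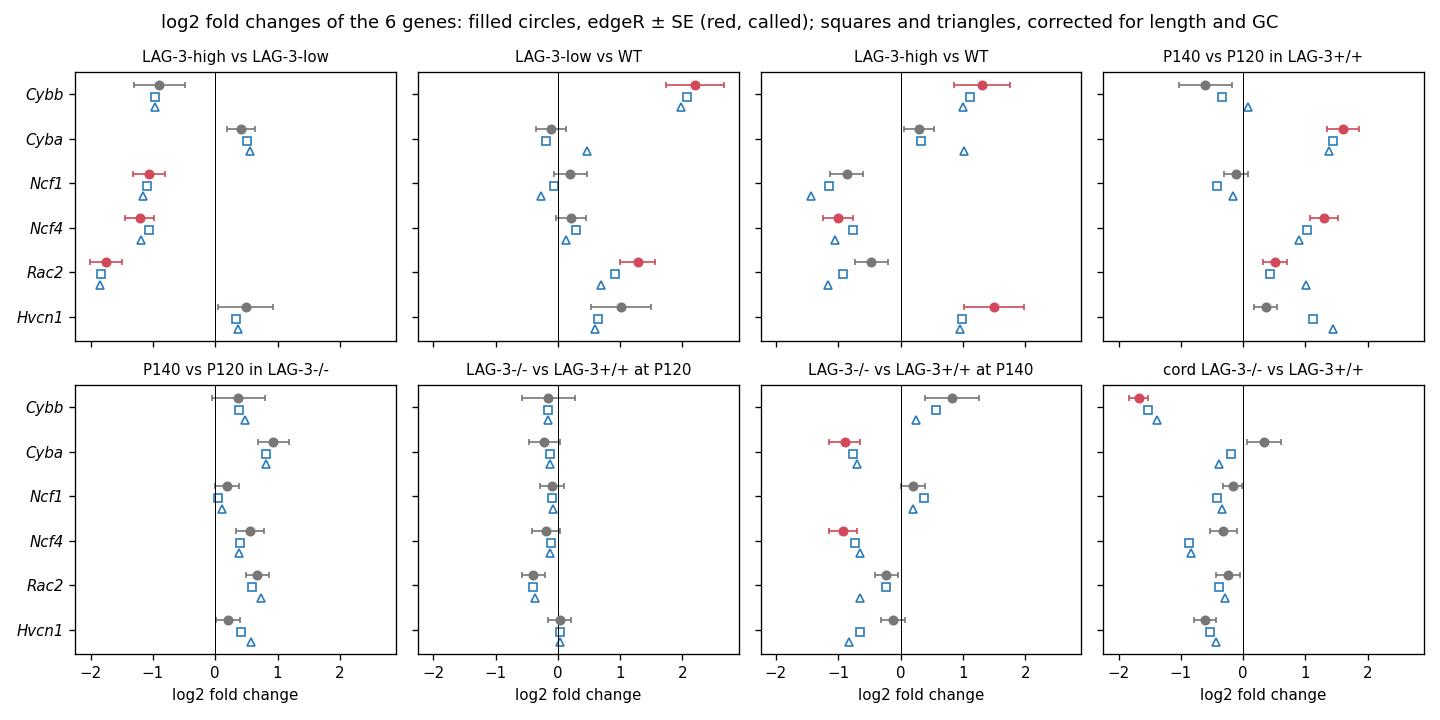
Log2 fold change of each member in each of the 8 contrasts between groups, as filled circles with bars of 1 standard error from edgeR, red where called; open squares and triangles are the values after the length and GC correction by the longest and by the canonical transcript. The 3 called members of LAG-3-high against LAG-3-low lie below 0, those of P140 against P120 in LAG-3+/+ above 0, and Cybb in cord lies at -1.68.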

How the data were processed

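Libraries of sorted microglia (26, SMART-seq, without strand) and lumbar cord (6, directional) were sequenced as paired-end reads. The authors trimmed them with Trim Galore 0.6.7, quantified GRCm39 transcripts with Salmon 1.9.0 and summed them with tximport in R 4.2.1, and deposited 3 tables of estimated counts per gene. Identifiers outside GENCODE (71, 66 and 71, with 0.0145% to 0.0514% of counts) were kept without a name.

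Each table was fitted separately on rounded counts with edgeR 4.0.16 in R 4.3.3 (robust quasi-likelihood test, TMM scaling, filterByExpr at a minimum count of 10 and total of 15). The standard error is the absolute log2 fold change over the square root of the F statistic. Calls needed a Benjamini-Hochberg adjusted p under 0.1 over all genes tested, with an absolute log2 fold change over 1 for sorts and cord. Alternatives were DESeq2 1.42.0, RLE factors, no TMM, no filter, sex, a replicate block, 2-group fits, another minimum fold, length and GC offsets, and each library left out. Offsets by canonical transcripts, fits without 2 WT or 2 P140 libraries, and TMM factors recomputed on corrected counts were chosen after seeing the data. The scripts were tested on simulated data.

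The members, the lists and the rule for naming genes (the members, 7 fixed genes, up to 3 called genes a list with the smallest adjusted p, and the 5 most alike genes) were chosen with earlier results of these data known. Some genes that the rule names are not reported here. Same-numbered libraries had mean correlations of 0.014, -0.00324 and 0.000967 after group means were removed, which does not settle whether any share an animal. No pair of libraries in a group agreed within counting noise (chi-square per gene of 15.9 or more).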

Additional observations from a re-analysis of the deposited data

Results flagged for a closer look

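Among the values of the members in 18 groups of 4 or 5 libraries, 1 library stood apart: the lowest LAG-3-high library held 178.6 CPM of Rac2, and its gap to the next library was 0.723 of the range of the group, which is narrow for this gene (178.6 to 189.8 CPM). Chance flags about 1 in 20 such groups.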

How the results depend on the processing

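Depth limits Ncf4 in cord most, where CPM lay between 2.84 and 4.49. The number of members called stayed within 1.5 times under 149 of 164 alternatives. A similar count can hold other members: with canonical lengths 4 were called in LAG-3-high against WT, Cyba, Ncf1 and Rac2 among them, while Cybb and Hvcn1 were not. LAG-3-low against WT gave 1 member with either length and GC correction, LAG-3-high against WT gave 1 with only the 2 groups fitted, P140 against P120 in LAG-3-/- gave 2 with DESeq2, and cord gave 2 with no minimum fold change. LAG-3-/- against LAG-3+/+ at P140 gave 0 with only the 2 groups, with the correction by canonical transcripts and with a minimum log2 fold change of 1, gave 1 with 2 P140 libraries left out, and gave 0 to 2 as single libraries were left out. The interaction gave 0 to 1 as single libraries were left out. The cause was not tested, except where fewer samples or a minimum fold is the alternative itself.

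Log2 fold changes of named genes changed sign in 32 of 1725 cases. Without TMM they were 0.032 for Cyba in LAG-3-low against WT, -0.11 for Hvcn1 in P140 against P120 in LAG-3+/+, -0.11 for Ncf1 and -0.0779 for Hvcn1 in LAG-3-/-, 0.0188 for Ncf1 between genotypes at P120, 0.0931 for Rac2 and 0.17 for Hvcn1 at P140, and 0.0338 for Hvcn1 in the interaction. In LAG-3-low against WT, Cyba was 0.0541 without the filter, 0.47 with canonical lengths and 0.0449 without 2 WT libraries, and Ncf1 was -0.0601 and -0.27 with the 2 corrections. Ncf1 with stage in LAG-3+/+ was 0.0023 with DESeq2 and 0.0021 with RLE factors. With canonical lengths, Cybb was 0.0712 in that contrast, Rac2 -0.27 in the interaction and Cyba -0.38 in cord, where it was -0.19 with the longest transcripts. Without the 2 P140 libraries Hvcn1 was 0.075 at P140 and 0.0494 in the interaction, and without the 2 WT libraries Duoxa1 was 0 in LAG-3-high against WT. Leaving out single libraries gave -0.28 to 0.18 for Cyba and -0.0435 to 0.45 for Ncf1 in LAG-3-low against WT, -0.22 to 0.0476 for Ncf1 with stage in LAG-3+/+, -0.56 to 0.11 for Cybb, -0.17 to 0.0181 for Ncf1 and -0.10 to 0.15 for Hvcn1 between genotypes at P120, and -0.0031 to 0.47 for Cyba in cord.

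With the replicate number as a block, 0 members were called between the genotypes at P140, Ncf4 in LAG-3-high against WT lay under the minimum fold and Rac2 with stage in LAG-3+/+ was not called. The block moved the genes called from 3614 to 2257 in LAG-3-low against WT, from 1908 to 814 between the genotypes at P140 and from 32 to 0 in the interaction. Whether the numbers pair the libraries is not settled: 6 of 14 sorted, 1 of 12 stage and 0 of 6 cord libraries correlated best with a library of their own number. Over all alternatives the genes called ranged from 370 to 1450 around 576 between the LAG-3 sorts, 1721 to 5775 around 3614 and 2663 to 6082 around 4464 against WT, 3218 to 6644 around 5118 with stage in LAG-3+/+, 0 to 449 around 0 in LAG-3-/-, 1 to 134 around 2 and 0 to 4281 around 1908 between genotypes at P120 and P140, 0 to 1713 around 32 in the interaction and 799 to 8330 around 1331 in cord. The lowest number between the LAG-3 sorts came without LAG-3-low replicate 3, the highest against WT without WT replicate 2, and the highest in the interaction without P140 LAG-3-/- replicate 1.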
